A study of Gossypium barbadense and Gossypium hirsutum with 4 samples.

Results

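Xyloglucan endotransglycosylases (XETs) were represented here by 4 Affymetrix probe sets out of 24029 that are not controls. The study's list of probe sets differing between *G. hirsutum* (*Gh*) and *G. barbadense* (*Gb*) named 3 of them in the rows used here, Ghi.6236.1.S1_s_at, Gra.375.2.S1_s_at and GraAffx.8958.1.S1_s_at. These were selected on the measured difference between the genotypes, because every one of those rows has a *Gh* signal at least 2-fold above the *Gb* signal. Any XET probe set with its higher signal in *Gb*, or with a smaller excess in *Gh*, could not be found by name in these rows and was not analysed here, so the shared direction of the named ones follows from the choice and does not describe the family as a whole. The study reports differing XETs in both directions on these arrays, more of them higher in *Gh* than in *Gb*. Ghi.6236.2.S1_s_at was added because its identifier carries the prefix and cluster number of Ghi.6236.1.S1_s_at, and no other probe set shared a prefix and cluster number with a listed one. It has no protein name of its own in the sources used here.

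XETs cut a xyloglucan chain of the primary cell wall and join the new end to another chain, so that chains tethering cellulose can be rearranged while the wall extends. Members of the family in plants act as transglycosylases, as hydrolases or as both, and they are encoded by many genes. The cotton fiber is a single cell of the seed coat epidermis that elongates for weeks by extension of its primary wall, before cellulose is laid down in a secondary wall. Cotton is an allotetraploid with an A and a D sub-genome, and *G. raimondii* is a diploid relative of the D-genome parent.

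Fibers were taken at 11 dpa according to the labels from untreated, glasshouse-grown plants of *Gh* variety Guazuncho 2 and *Gb* variety VH8-4602, each genotype being a single variety of its species. The paper's methods give this age too, while its results text gives a slightly earlier day for these arrays. The RNA on each of the 4 arrays came from a pool of 4 plants. With 2 arrays per genotype, described in the methods as independent replicates, the spread is that between such pools. The arrays are called by their labels, V.1 and V.2 for *Gb* and G.30 and G.29 for *Gh*. The deposited values are gcrma signals on the log2 scale, and differences are *Gb* minus *Gh*, so that a negative value is a higher signal in *Gh*. In whole fiber RNA, fewer cells of a type and less RNA per cell cannot be told apart.

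Ghi.6236.1.S1_s_at was designed from an XET mRNA of *G. hirsutum* recorded with its complete coding sequence. Gra.375.2.S1_s_at was designed from an expressed sequence of *G. raimondii* that is moderately similar to XTR2, a member of the family in Arabidopsis. GraAffx.8958.1.S1_s_at, also designed from *G. raimondii*, was named an XET by Blast2GO. All 4 names end in _s_at, the suffix of probe sets whose probes match more than 1 transcript, so that each signal may sum over gene copies, homoeologs included. Neither the probe nor the transcript sequences were used here, and how well the probes fit transcripts of *Gb* was not tested.

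The XET probe sets were among the bright probe sets of every array, and these 4 were brighter in *Gh*, a direction that the choice of rows fixed for 3 of them. The other, Ghi.6236.2.S1_s_at, is a cluster mate of a chosen one, so its direction may not be free of that choice. Ghi.6236.2.S1_s_at was the brightest, with log2 signals of 14.14 (V.1) and 14.26 (V.2) in *Gb* and of 15.06 (G.30) and 15.10 (G.29) in *Gh*. GraAffx.8958.1.S1_s_at followed with 13.33 and 13.14 on V.1 and V.2 and with 14.65 and 14.61 on G.30 and G.29. Ghi.6236.1.S1_s_at had 12.18 and 12.24 in *Gb* and 13.85 and 13.76 in *Gh*. For each of these probe sets both *Gh* arrays lay above both *Gb* arrays, with no overlap. The same held for Gra.375.2.S1_s_at, the dimmest, with 10.79 and 10.75 in *Gb* and 12.50 and 12.35 in *Gh*. For the 3 listed probe sets the choice of rows favours such a separation. With 2 arrays against 2 it is also not rare without a genotype effect. The share of all probe sets without overlap was not counted.

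**Figure D1:**
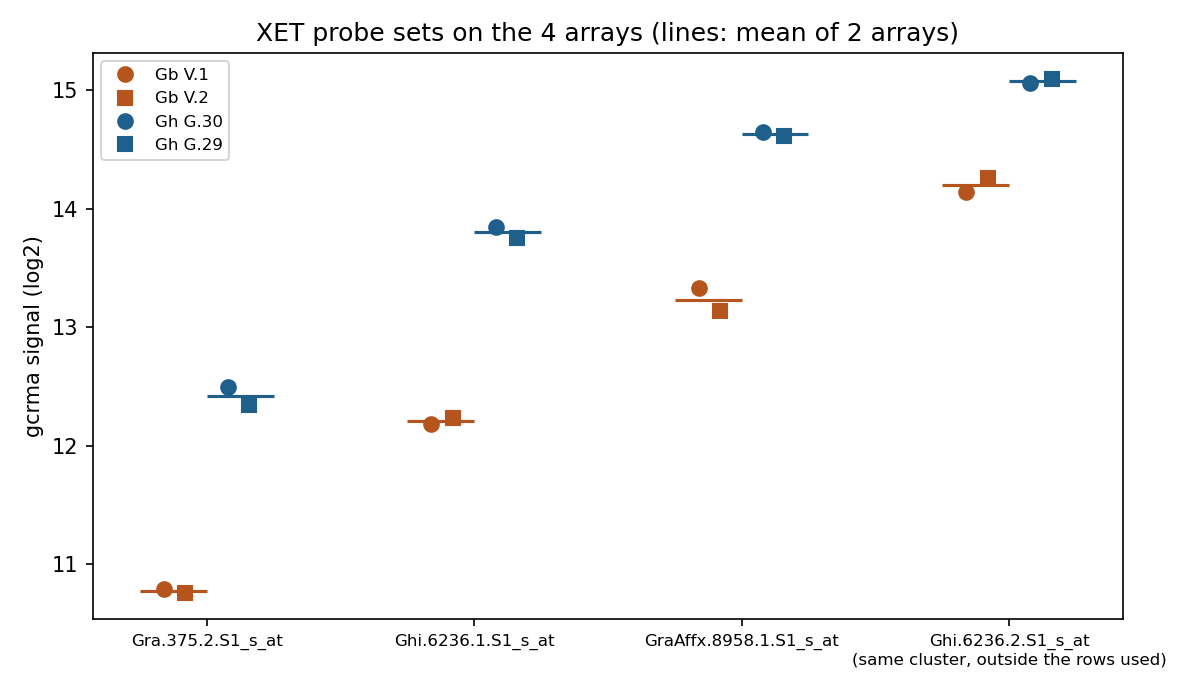
Signal (log2, vertical axis) of the 4 XET probe sets on each array, with *Gb* arrays in brown, *Gh* arrays in blue and a line at the mean of the 2 arrays of a genotype. In each probe set both *Gh* points lie above both *Gb* points, and the step is smallest for Ghi.6236.2.S1_s_at (14.20 to 15.08).

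Ranked by signal on each array, with 1 as the brightest of 24029, Ghi.6236.2.S1_s_at stood at 207 and 172 on the *Gb* arrays V.1 and V.2 and at 53 and 46 on the *Gh* arrays G.30 and G.29. GraAffx.8958.1.S1_s_at stood at 524 and 631 in *Gb* and at 112 and 114 in *Gh*. Both thus belonged to the brightest 2.63% of every array. Ghi.6236.1.S1_s_at moved from 1357 and 1307 in *Gb* to 318 and 351 in *Gh*. Gra.375.2.S1_s_at moved from 2895 and 2977 to 1064 and 1191, and even its lowest position was within the brightest 12.4% of an array. The order of the 4 probe sets was the same on all 4 arrays, Ghi.6236.2.S1_s_at first, then GraAffx.8958.1.S1_s_at, Ghi.6236.1.S1_s_at and Gra.375.2.S1_s_at. The neighbours in this order were apart by more than the spread between replicate arrays, the smallest gap on any array being 0.42 on the log2 scale, between Ghi.6236.2.S1_s_at and GraAffx.8958.1.S1_s_at on G.30. Signals of different probe sets depend on their probes as well as on the transcripts, so this order is one of signals, and which gene copy has the most transcript was not tested.

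**Figure D2:**
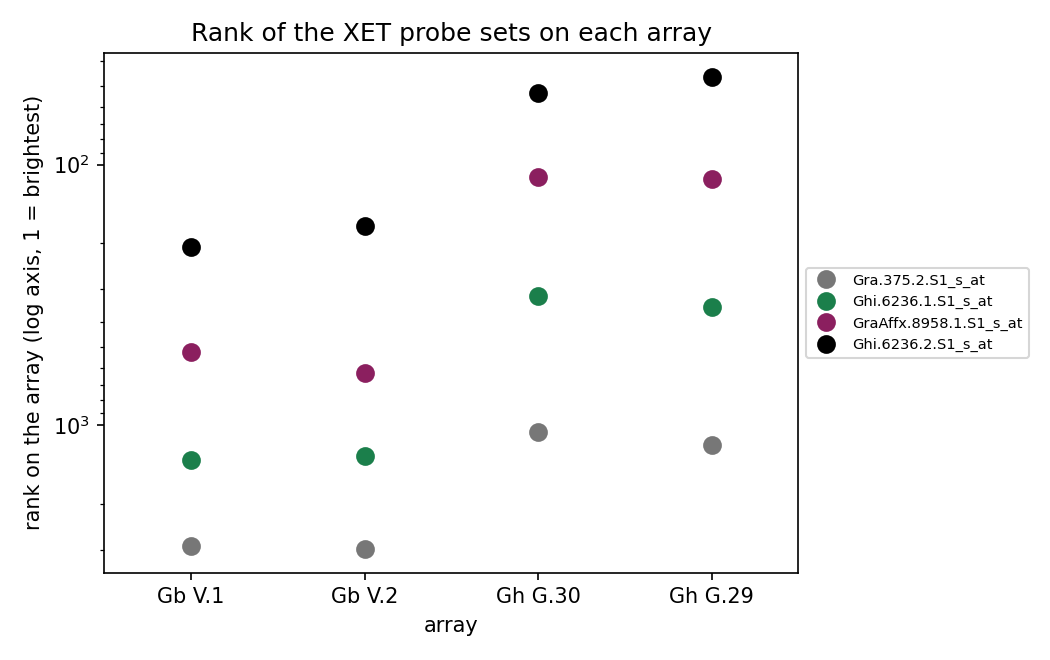
Rank of each XET probe set among 24029 (vertical axis, logarithmic, 1 at the top) on the *Gb* arrays V.1 and V.2 and the *Gh* arrays G.30 and G.29. The order of the probe sets is the same on every array, and each ranks higher in *Gh*, Ghi.6236.1.S1_s_at for example at 318 and 351 against 1357 and 1307 in *Gb*.

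The listed probe sets were chosen by the difference itself, so the differences are given as a description without a test. Gra.375.2.S1_s_at differed by -1.65, a 3.14-fold higher signal in *Gh*, with a *Gb* mean of 10.77 ± 0.02 (SD, n = 2) against a *Gh* mean of 12.42 ± 0.11 (SD, n = 2). Ghi.6236.1.S1_s_at differed by -1.59 (3.01-fold), its *Gb* mean being 12.21 ± 0.04 (SD, n = 2) and its *Gh* mean 13.80 ± 0.06 (SD, n = 2). GraAffx.8958.1.S1_s_at differed by -1.40 (2.63-fold), from a *Gh* mean of 14.63 ± 0.03 (SD, n = 2) to a *Gb* mean of 13.23 ± 0.14 (SD, n = 2). The rows of the list used here end at a 2-fold difference, so that these 3 lay well inside its end, whereas Ghi.6236.2.S1_s_at, with 1.84-fold, lay just outside.

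Ghi.6236.2.S1_s_at was chosen by its identifier, and its difference of less than 2-fold put it outside the rows used. Whether the remainder of the study's list holds it was not examined. Its signal was 1.84-fold higher in *Gh*, at a *Gb* mean of 14.20 ± 0.08 (SD, n = 2) and a *Gh* mean of 15.08 ± 0.02 (SD, n = 2). The difference of -0.88 (standard error 0.06) passed the threshold of 0.05 in limma, a linear model that pools the spread over probe sets, with an adjusted p of 0.00874 over all 24029 probe sets. As background, 20.3% of all probe sets passed in either direction and 8.87% were higher in *Gh*, a share that was 16.6% among the 1486 probe sets whose log2 signal averaged 12 or more. The call was kept without any 1 of the 4 arrays (adjusted p = 0.0309 to 0.0340 from limma), where the lone array left in a genotype is assumed to vary like the others and the spread comes from the other genotype and the prior, and it was lost where limma p-values were adjusted by Bonferroni (adjusted p = 1). An exact permutation test of 2 arrays against 2 cannot give a two-sided p below 0.333, so none is given.

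Both probe sets of cluster Ghi.6236 were higher in *Gh*, but by different amounts. The signal of Ghi.6236.2.S1_s_at exceeded that of Ghi.6236.1.S1_s_at by 1.96 (V.1) and 2.02 (V.2) on the log2 scale in *Gb* and by 1.22 (G.30) and 1.34 (G.29) in *Gh*. The gap was therefore 0.71 narrower in *Gh*, and its values did not overlap between the genotypes. The narrowing was not particular to the cluster. For every gap of Ghi.6236.2.S1_s_at its direction follows from the choice of rows. The other probe set of each such gap was kept for a difference of at least 2-fold, and Ghi.6236.2.S1_s_at fell below 2-fold. Ghi.6236.2.S1_s_at exceeded Gra.375.2.S1_s_at by 3.35 and 3.51 in *Gb* and by 2.57 and 2.75 in *Gh*, a gap 0.77 narrower in *Gh*, and its gap to GraAffx.8958.1.S1_s_at was 0.51 narrower. GraAffx.8958.1.S1_s_at exceeded Gra.375.2.S1_s_at and Ghi.6236.1.S1_s_at by gaps that were 0.26 and 0.20 narrower, again without overlap between the genotypes. The gap between Ghi.6236.1.S1_s_at and Gra.375.2.S1_s_at was 1.40 and 1.48 in *Gb* and 1.35 and 1.41 in *Gh*, and among the 6 pairs it was the only one whose values overlapped. No test is given for any gap, since each holds at least 1 probe set chosen on the difference that enters it. How often the gaps of other pairs of probe sets overlap between the genotypes was not counted.

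Over the 4 XET probe sets, the difference became smaller as the signal became higher, from -1.65 at a mean log2 signal of 11.60 to -1.59 at 13.01, -1.40 at 13.93 and -0.88 at 14.64. Genotype differences were smaller at higher signals over all probe sets too. The median absolute difference was 0.31 among the 1092 probe sets with a mean log2 signal from 11 to 12, 0.24 among the 468 from 13 to 14, 0.15 among the 185 from 14 to 15 and 0.10 among the 49 above 15. The highest signal on any array was 16.16. Whether the narrower gaps follow from the upper end of the signal range was not tested.

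Within its own class of signal, each XET probe set lay toward the *Gh* end of the range. Of the 468 probe sets with a mean log2 signal from 13 to 14, 5 had a difference as low as that of Ghi.6236.1.S1_s_at or lower, itself included, and 10 reached that of GraAffx.8958.1.S1_s_at. Of the 1092 from 11 to 12, 22 reached the value of Gra.375.2.S1_s_at, or 2.01%. For these listed probe sets the position follows from the choice. Of the 185 from 14 to 15, 7 (3.78%) had a difference of -0.88 or lower, the value of Ghi.6236.2.S1_s_at. The median difference of all probe sets was 0.04, and that of the 1486 bright ones 0.04 as well.

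**Figure D3:**
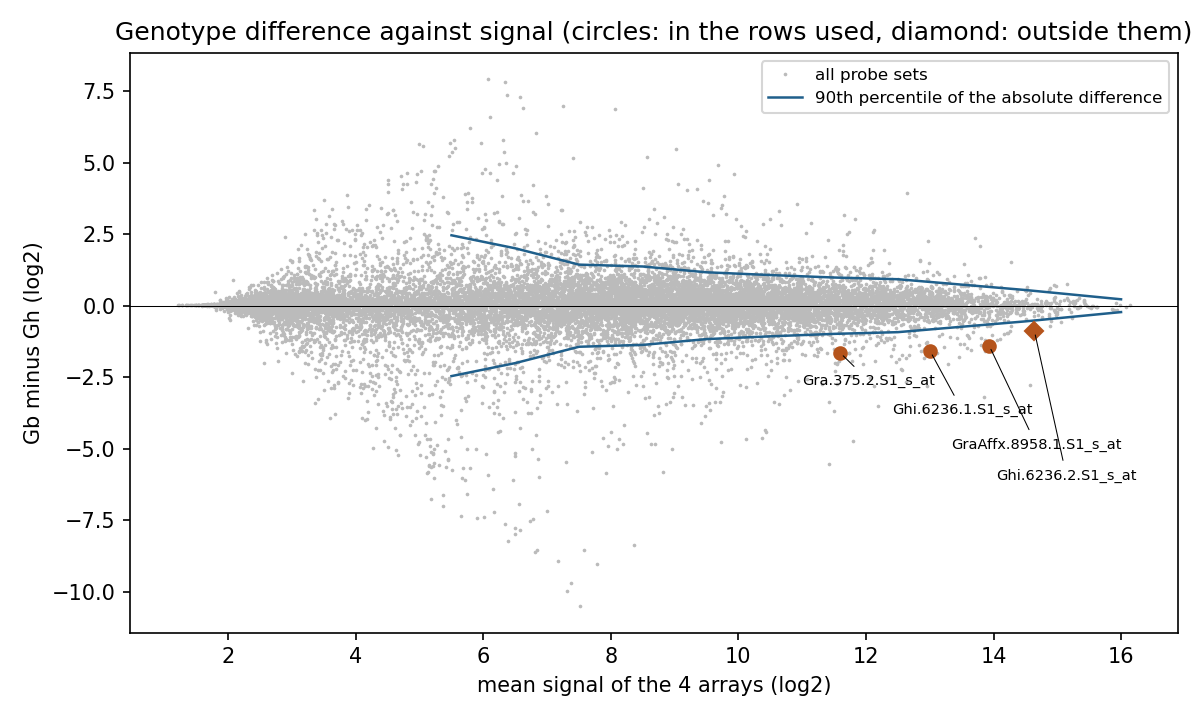
Difference between the genotypes (*Gb* minus *Gh*, log2, vertical axis) against the mean signal of the 4 arrays (log2, horizontal axis) for all 24029 probe sets in grey, with the XET probe sets as filled symbols and blue lines at plus and minus the 90th percentile of the absolute difference in classes of signal. The 4 XET probe sets lie between -1.65 and -0.88, beyond the lower line, which narrows from 0.99 at a signal of 11 to 12 to 0.55 at 14 to 15.

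The replicate arrays of a genotype were close for the XET probe sets. Ghi.6236.1.S1_s_at differed by 0.05 between the *Gb* arrays and by 0.09 between the *Gh* arrays. The widest replicate difference was that of GraAffx.8958.1.S1_s_at in *Gb*, 0.19 between V.1 and V.2, which 17.7% of the probe sets of the same signal class reached or exceeded. Gra.375.2.S1_s_at differed by 0.15 between the *Gh* arrays. Each of these was far below the difference between the genotypes.

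Several values of the arrays as a whole stood beside these differences. The signal at the 5' end of the cotton actin control transcript, relative to its 3' end, was -3.03 and -3.07 in *Gb* and -2.18 and -2.52 in *Gh* on the log2 scale, which gives a difference of -0.70, and it was also lower in *Gb* for ss1 (by a difference of -0.84) and ubq11 (-0.30). The hybridization controls, foreign transcripts added to every sample, were brighter on the *Gb* arrays by 0.28. Scaled to them, the differences of the listed XET probe sets lay between -1.93 and -1.67 and that of Ghi.6236.2.S1_s_at was -1.16, the direction being the same. The part of the weaker 5' signals in the XET differences was not tested.

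Among 24025 other probe sets, those with a signal most like that of an XET were found as the 3 with the smallest maximum difference over the 4 arrays. The nearest to Ghi.6236.1.S1_s_at was GhiAffx.49477.1.A1_at, named alpha-l-fucosidase 2, which stayed within 0.17 on every array. In Arabidopsis an enzyme of this name removes fucose from the side chains of xyloglucan. Its log2 signals were 12.26 and 12.30 in *Gb* and 13.95 and 13.93 in *Gh*. It was followed by Gra.2912.1.A1_s_at (within 0.21), named phenylcoumaran benzylic ether reductase, a reductase of phenylpropanoid metabolism, and by Ghi.8382.2.S1_s_at (within 0.26), which has no name here. For Gra.375.2.S1_s_at the nearest was Gra.1067.1.S1_s_at (within 0.17), named 3-deoxy-d-arabino-heptulosonate 7-phosphate synthetase, the first enzyme of the shikimate pathway, before Ghi.7222.1.S1_at (0.21) and GhiAffx.2385.1.A1_at (0.23), both without a protein name.

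The probe sets nearest to GraAffx.8958.1.S1_s_at were Gra.2508.1.A1_x_at (within 0.18), named chalcone synthase, Ghi.8448.1.S1_x_at (0.20), described as beta-tubulin 1, and GarAffx.30221.1.S1_s_at (0.23), named trans-cinnamate 4-hydroxylase. Ghi.6236.2.S1_s_at had only 1 close neighbour, Ghi.1314.2.S1_s_at (within 0.13), with 14.27 and 14.22 in *Gb* and 15.05 in both *Gh* arrays. The next were Ghi.6188.1.A1_at and Ghi.9347.1.S1_s_at, already 0.37 and 0.38 away. None of these 3 has a name in the rows used. The likeness rests on 4 arrays of 2 genotypes and is a likeness of signal level.

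Other enzymes that loosen or trim wall polysaccharides were matched by name in the same part of the study's list. Since those rows were selected on these arrays for a higher signal in *Gh*, the direction was fixed by the choice. The values are given as a description without a test. The rows held 2 expansin names, 2 endoglucanase names, which share a cluster, and 4 names of side-chain glycosidases. Expansins loosen the contacts between cellulose and the matrix without cutting chains. GhiAffx.40054.1.S1_at (alpha-expansin 8) had 9.40 and 9.43 in *Gb* and 11.50 and 11.40 in *Gh*, and Ghi.9840.2.S1_s_at (alpha-expansin 4) 6.25 and 6.36 against 7.73 and 7.97. Endoglucanases cut beta-1,4-linked glucan chains. Ghi.8051.1.S1_at had 8.78 and 8.49 in *Gb* and 11.55 and 11.28 in *Gh*, while Ghi.8051.1.A1_x_at lay below a log2 signal of 4, taken as the floor, on both *Gb* arrays (2.98 and 3.55) and at 5.23 and 6.05 in *Gh*.

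Glycosidases that take single sugars off wall polysaccharides included the fucosidase GhiAffx.49477.1.A1_at and 3 probe sets named or described as beta-xylosidases, enzymes that act on xylan and arabinan chains. Ghi.5042.1.A1_s_at had 9.11 and 8.96 in *Gb* and 11.26 and 11.23 in *Gh*. Ghi.8524.1.S1_at, similar to BXL1 of Arabidopsis, had 5.76 and 5.81 against 10.10 and 10.31. Ghi.9633.2.S1_s_at was below the floor in *Gb* (2.38 and 2.80) and had 6.74 and 5.80 in *Gh*. Of 10 names of pectin-modifying enzymes the brightest was Ghi.7660.1.S1_s_at, a pectinesterase-like protein, with means of 10.01 in *Gb* and 11.48 in *Gh*. The glycan synthase names were Ghi.7514.1.S1_s_at (similar to CSLA02), at 10.71 in *Gb* and 11.75 in *Gh*, and Ghi.3562.1.A1_at (similar to CSLE1), which was below the floor in *Gb*. No calls are given for any of these names, since their rows were chosen for a higher signal in *Gh*.

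Outside the list, the clusters of the expansin, endoglucanase and glycosidase probe sets held only 1 further probe set, Ghi.9840.1.S1_at, in the cluster of alpha-expansin 4. It had 6.75 and 6.65 in *Gb* and 6.69 and 6.79 in *Gh*, so that the genotypes overlapped (difference -0.04, adjusted p = 0.655 from limma).

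**Figure D4:**
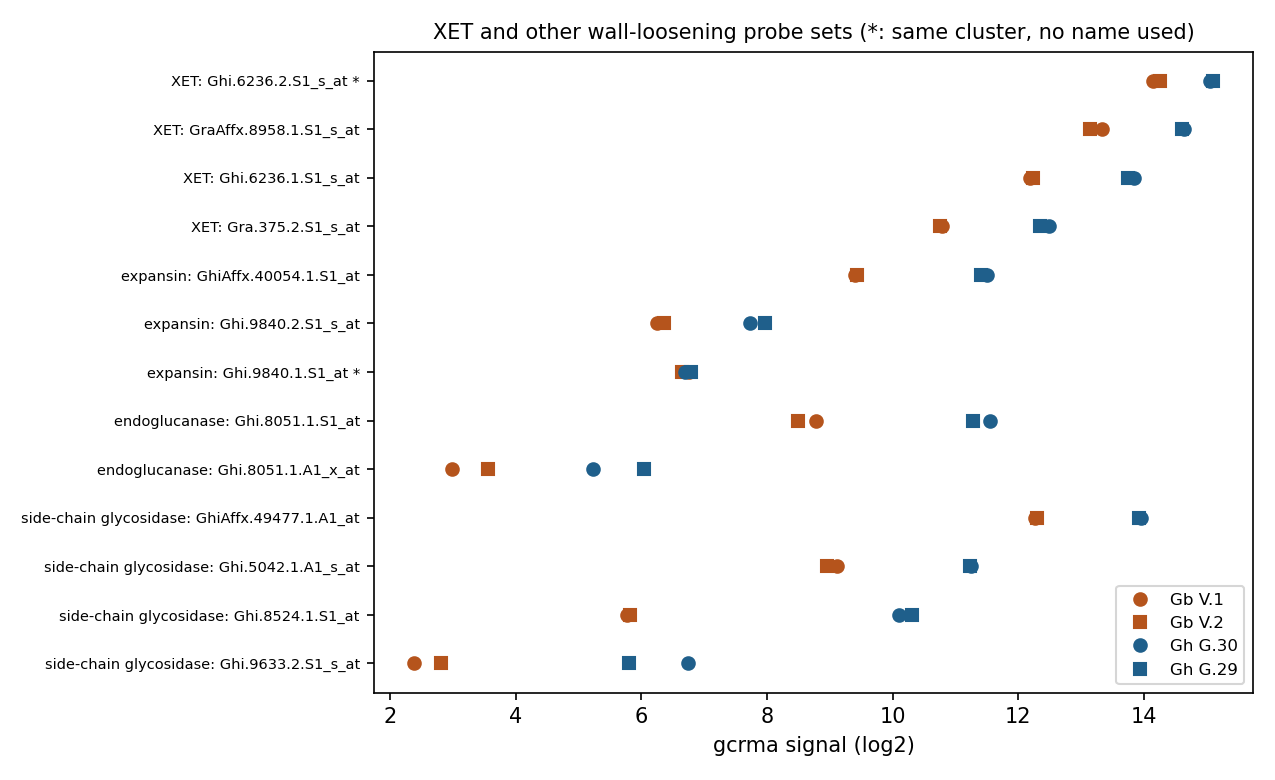
Signal (log2, horizontal axis) on each array, *Gb* in brown and *Gh* in blue, of the XET, expansin, endoglucanase and side-chain glycosidase probe sets, with an asterisk on cluster mates that were not in the rows used. The XET signals run from 10.75 to 15.10, and the asterisked expansin Ghi.9840.1.S1_at is the only plotted probe set whose *Gb* and *Gh* points overlap. Probe sets without an asterisk come from rows chosen for a higher *Gh* signal, which favours a separation.

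The signals of genes that elongating fibers are known to express strongly were looked up in the same rows, where 10 names were found. The brightest, the lipid transfer protein Ghi.6324.1.A1_x_at, which belongs to a family secreted to the wall, was a bright probe set in both genotypes, with 13.49 and 13.56 in *Gb* and 14.66 and 14.70 in *Gh*. Sucrose synthase (Ghi.8665.1.S1_s_at), which supplies UDP-glucose for cellulose, had means of 13.04 in *Gb* and 14.18 in *Gh*. No test is given for the fiber names, because their rows were chosen for a higher signal in *Gh*, and their direction says nothing about the tissue. Photosynthesis genes, markers of green tissue, had 3 names in these rows. GraAffx.6076.1.S1_x_at (photosystem I) was below the floor in *Gb* and at 4.09 and 4.93 in *Gh*. The large subunit of ribulose-bisphosphate carboxylase (GhiAffx.18370.1.A1_at) had 6.72 and 7.44 in *Gb* and 8.83 and 9.43 in *Gh*, and photosystem II CP43 (GhiAffx.5664.1.S1_s_at) 6.14 and 6.46 against 7.80 and 7.34. All 3 lay higher on both *Gh* arrays, a separation that the choice of rows favours, and their part in the XET differences was not tested.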

How the data were processed

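RNA from 11 dpa fibers of 2 *Gb* and 2 *Gh* samples was hybridized to Affymetrix cotton arrays. Scanner files were read into R by the authors and normalized by gcrma, also named in the submitters' processing notes, whose version is not given in the sources used here. Values were deposited as log2 signals, for which gcrma corrects background, equalizes arrays and summarizes each probe set over its probes. Columns were assigned to samples by accession. The 103 control probe sets were left out, and limma 3.58.1 in R 4.3.3 (lmFit, eBayes, two-sided, prior of 1.10 degrees of freedom) was fitted to the other 24029, with Benjamini-Hochberg adjustment over all and a threshold of 0.05. A log2 signal of 4 was taken as the floor. Array medians were 4.26 to 4.36. The number of arrays limits the precision, no batch is named, and p-values measure the spread between pools of plants. Names came from the first 1159 rows of the study's list, whose columns of fold differences and p-values were not used. The members, lists and tests were chosen with earlier results of these data known. Named probe sets were the 4 XET probe sets, the 3 most alike of each, all names of the expansin, endoglucanase and glycosidase lists with their clusters, and up to 3 of each other list by mean signal. The neighbours of Ghi.6236.2.S1_s_at were added after its values were seen. The limma fit was first tested on simulated data. Alternatives were other variance priors, a filter, scalings, adjustments, the methods' t-test, which uses 1 common variance, leaving out arrays, and other sets of ranked probe sets. Figures used Python 3.11.15 and matplotlib 3.10.9.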

Additional observations from a re-analysis of the deposited data

How the results depend on the processing

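All 4 XET probe sets kept the higher signal in *Gh* under every alternative run, a direction that the choice of rows had fixed for the listed ones. The difference of Ghi.6236.2.S1_s_at ranged from -1.16 to -0.80 over 13 alternatives and kept its call except where limma p-values were adjusted by Bonferroni (difference -0.88, adjusted p = 1). Some of these alternatives change only the p-values or drop other probe sets, and they leave the difference at -0.88 by construction. With array medians subtracted, Ghi.6236.1.S1_s_at and Gra.375.2.S1_s_at differed by -1.51 and -1.57, and with cyclic loess Ghi.6236.1.S1_s_at by -1.65. Scaling to the hybridization controls gave -1.87, -1.93 and, for GraAffx.8958.1.S1_s_at, -1.67, and raised the number of probe sets called from 4880 to 7524, of which 5512 were higher in *Gh* instead of 2131. Without 1 array, which leaves 1 genotype with a single array whose spread is assumed, the differences ranged from -1.64 to -1.55 for Ghi.6236.1.S1_s_at, from -1.73 to -1.57 for Gra.375.2.S1_s_at, from -1.49 to -1.30 for GraAffx.8958.1.S1_s_at and from -0.94 to -0.82 for Ghi.6236.2.S1_s_at, and 2542 to 3947 probe sets were called, 2542 without V.2 and 2798 without V.1. The limma p-values with Bonferroni adjustment called 33 probe sets, the methods' t-test 3906 with Bonferroni and 7328 with Benjamini-Hochberg adjustment, and limma 1998 without the probe sets ending in _x_at, _s_at or _a_at, a setting that holds none of the XETs. Ranked among probe sets ending in _s_at alone, the XETs stood in the brightest 0.38% to 20.3%, and with the control probe sets included in the brightest 0.19% to 12.4%. No paired analysis was possible because the arrays of the genotypes share no replicate number. The smallest signals near the floor are set by gcrma, and no detection call was used.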
